A study of Homo sapiens with 16 samples.

Results

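The genes of cholesterol and fatty acid synthesis were followed through RNA-seq of HCT116, an established line from a human colorectal carcinoma. The list holds 33 genes of the 33937 in the count table, named from the textbook routes at a time when earlier results of these data were known, so its counts are not independent of them. Of these, 18 encode enzymes that make sterols, 9 encode enzymes that make, lengthen or desaturate fatty acids, and 6 encode regulators of both routes together with a sterol carrier. The series held 16 libraries in 4 groups of 4. The cells carried a doxycycline-inducible short hairpin RNA, either a scrambled control (SCR) or one against NAA40 (NAA40-KD), the N-terminal acetyltransferase of histones. For either hairpin, 4 libraries were labelled (+dox) and 4 were labelled (-dox). Those labelled (+dox) are given as 96 h with 1 µg/ml doxycycline and the others as cells without the drug. Each hairpin was a stable line of the same parental cells, so the 2 lines also differ by their derivation. The labels do not say that the libraries of a group came from separate cultures, so every p-value here measures only the spread between these libraries.

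Sterols and fatty acids are both built from cytosolic acetyl-CoA, which ACLY makes from citrate and ACSS2 from acetate. In the sterol route, acetyl-CoA units are joined and reduced to mevalonate, converted to isoprenoid units, condensed to squalene, and then closed and trimmed to cholesterol. In the fatty acid route, ACACA makes malonyl-CoA, FASN builds palmitate, SCD inserts a double bond, and the ELOVL and FADS enzymes lengthen and further desaturate the chain. The transcription factors encoded by SREBF1 and SREBF2 switch on both sets of genes. They are held in the endoplasmic reticulum by SCAP together with INSIG1 and INSIG2 when sterols are plentiful, and are released to the nucleus when sterols fall. INSIG1 is itself a target of these factors, and their binding at promoters is commonly helped by the CCAAT-binding factor NF-Y and by Sp1.

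Promoter sequences of 29 of the 33 members were matched in RefSeq (GRCh38.p14), and those of ACAT2, FDFT1, SQLE and FASN were not. In the 250 bases before the start, on both strands, the sterol regulatory element letters TCACNCCAC stood in 1 of the 29, SREBF2 (3.45%), against 0.883% of 35116 promoters. The letters CCAAT were found in 19 of the 29 (65.5%, against 32% of all promoters), in 12 of 15 sterol enzymes, 4 of 8 fatty acid enzymes and 3 of 6 regulators. The Sp1 letters GGGCGG stood in 26 of the 29 (89.7%, against 42.6%), and the E-box CACGTG in 4 (13.8%, against 6.34%). A match of letters is a description of these windows, and a missing match says nothing about the binding of a factor. The promoter of SREBF2 is printed because it alone held the sterol regulatory letters. Those of INSIG1 and HSD17B7 were added after their values were seen, from the members that passed a comparison with all libraries. Among these, they had CCAAT letters, no other annotated gene over the window and the greatest passing difference. Capitals mark TCACNCCAC in the forward strand and CCAAT read on the reverse strand as ATTGG. Each is the plus strand and stops before the annotated gene.
SREBF2, chr22:41832855-41833078: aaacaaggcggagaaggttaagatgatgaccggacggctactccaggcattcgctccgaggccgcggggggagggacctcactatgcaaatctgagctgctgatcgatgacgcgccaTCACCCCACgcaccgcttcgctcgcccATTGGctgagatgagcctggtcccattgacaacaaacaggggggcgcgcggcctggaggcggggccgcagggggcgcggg
INSIG1, chr7:155297628-155297775: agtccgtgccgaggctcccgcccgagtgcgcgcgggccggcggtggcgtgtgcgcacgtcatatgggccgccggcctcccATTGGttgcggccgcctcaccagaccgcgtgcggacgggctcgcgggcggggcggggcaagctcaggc
HSD17B7, chr1:162790452-162790701: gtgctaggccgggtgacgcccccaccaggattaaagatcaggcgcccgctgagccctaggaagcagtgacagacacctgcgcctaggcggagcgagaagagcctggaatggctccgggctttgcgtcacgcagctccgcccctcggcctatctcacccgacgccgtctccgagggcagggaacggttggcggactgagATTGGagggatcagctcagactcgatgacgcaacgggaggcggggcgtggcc
The sterol regulatory letters of SREBF2 lay at position -133 and its CCAAT letters at -106 from the RefSeq start, and this window also overlies the antisense transcript SREBF2-AS1. The CCAAT letters lay at -170 in INSIG1 and at -52 in HSD17B7.

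Total counts ran from 11065606 to 13855486 per library. NAA40 itself stood against the labels. Its level was 12.6, 11.5, 9.25 and 13.8 CPM (counts per 1e+06 counts, with library sizes scaled by TMM factors) for the label NAA40-KD (-dox), and between 28.6 and 31.8 CPM for NAA40-KD (+dox). Its level was therefore 40.2% of the SCR level in the (-dox) pair of groups (exact two-sided permutation test over 4 against 4, p = 0.0286, the smallest this design allows) and 111% of it in the (+dox) pair (p = 0.0571). For this reason every group is called by its label, and no direction below is assigned to loss of NAA40. The epithelial markers EPCAM, KRT8, KRT18, KRT19 and CDH1 lay between 120.01 and 4881 CPM in the 16 libraries. The 7 leukocyte and endothelial markers stayed at or below 1.81 CPM, COL1A2 and DCN held at most 1 count, PDGFRB reached 1.09 CPM, and COL1A1 lay between 58.2 and 185 CPM. In bulk RNA, fewer cells of a kind and less RNA per cell cannot be told apart.

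One library stood apart, and many members moved with it. The library labelled NAA40-KD (-dox) replicate 4 differed from the other 3 of its group according to the GC content of the gene. Over the 33 members, its log2 difference from the other 3 libraries correlated with the GC percent of the longest transcript (Pearson r = 0.85, n = 33 genes, which share this library). The 11 members lowest in GC, among them STARD4, INSIG2, MSMO1 and SC5D, had a median difference of -1.13 on the log2 scale. The 11 highest, among them FASN, TM7SF2, MVD and SREBF1, had a median of 1.04, and the middle 11 one of -0.09. Over all genes with a GC value the medians ran from -1.10 in the lowest of 5 bins of GC content to 1.03 in the highest, so the pattern was not particular to the members. CYP51A1, which demethylates lanosterol, was the exception, with low GC and a difference of 1.97, on 34 to 169 counts in this group. The part of GC content in the results was not tested, and the main results that rest on this library are given with it and without it. Leaving it out was singled out after its values were seen. Patterns with GC content were also present in SCR libraries, each set against the others of its group. Over the members r was 0.80 in SCR (+dox) replicate 4, -0.76 in SCR (+dox) replicate 1 and 0.68 in SCR (-dox) replicate 2. Over all genes the medians by bin ran from -0.30 in the lowest to 0.20 in the highest for SCR (+dox) replicate 4. That span was narrower than in NAA40-KD (-dox) replicate 4. Leaving out NAA40-KD (-dox) replicate 4 does not remove the patterns of the SCR libraries.

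**Figure D1:**
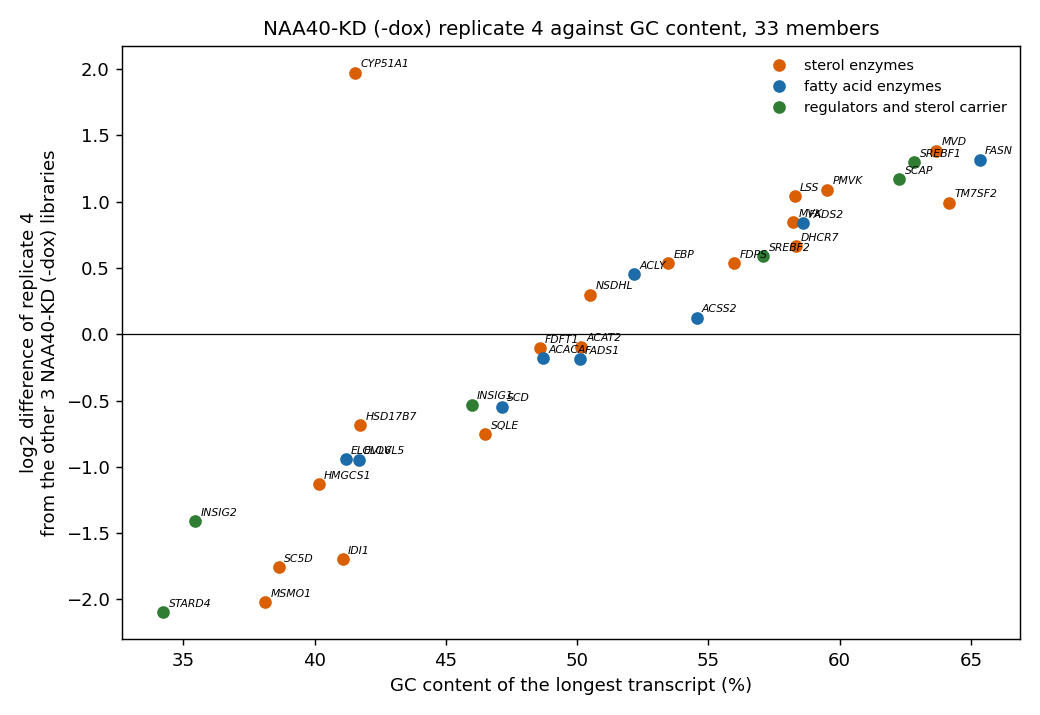
The log2 difference of NAA40-KD (-dox) replicate 4 from the mean of the other 3 libraries of its group (vertical axis) against the GC percent of the longest transcript (horizontal axis), 1 point per member and coloured by list. The points climb from -2.10 in STARD4 to 1.32 in FASN, with CYP51A1 far above the trend at 1.97.

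The first comparison set NAA40-KD against SCR among the libraries labelled (-dox), where NAA40 itself was lower in the NAA40-KD line. Most genes of both routes and their regulators lay higher in NAA40-KD. A positive log2 fold change was found in 26 of the 33 members, where 53.8% of all genes had one. With all 8 libraries, 2 members passed at an adjusted p under 0.05 in the quasi-likelihood test of edgeR, adjusted by Benjamini and Hochberg's method over 13903 genes. These were INSIG1, the sterol-sensing anchor of the SREBP complex, and SQLE, the squalene epoxidase. Both rose. Of all genes tested, 6.42% were called in this comparison, 2.88% as higher and 3.54% as lower, so 2 of 33 members is close to the background. The values below show what lay behind that count.

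INSIG1 (chr7:155297776-155310235, plus strand, GRCh38, all gene positions from GENCODE release 29) was at 168, 184, 169.7 and 120.2 CPM in NAA40-KD (-dox) replicates 1 to 4. In SCR (-dox) it was at 97.5, 60.2, 69.2 and 91.2 CPM. Every NAA40-KD library lay above every SCR library, with replicate 4 the lowest of its group. The difference was 1.02 on the log2 scale (SE 0.20, adjusted p = 0.0215, edgeR), or 2.03-fold, and without replicate 4 it was 1.13 (SE 0.14, adjusted p = 3.72e-05). SQLE (chr8:124998497-125022283, plus strand) was at 178, 183, 169 and 104 CPM in NAA40-KD (-dox) and at 95.7, 77.3, 87.8 and 99.7 CPM in SCR (-dox). Again the groups did not overlap, and replicate 4 was closest to the controls. The log2 difference was 0.82 (SE 0.19, adjusted p = 0.0383, edgeR), or 0.97 (SE 0.09, adjusted p = 2.55e-06) without replicate 4. Neither call held when any of 6 other libraries was left out, as given in the closing part.

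Among the regulators, SREBF2 (chr22:41833079-41907308, plus strand), the main activator of sterol genes, was at 495, 498, 527 and 763 CPM in NAA40-KD (-dox) and at 405, 455, 384 and 396 CPM in SCR (-dox). The groups did not overlap, and replicate 4 was far the highest. SREBF1 (chr17:17810399-17837002, minus strand), which favours fatty acid genes, was at 538, 596, 563 and 1389 CPM against 443, 543, 439 and 418 CPM. Here the groups overlapped, since SCR replicate 2 reached above NAA40-KD replicate 1, and replicate 4 again stood far above the rest. With all libraries their log2 fold changes were 0.49 (SREBF2, adjusted p = 0.126) and 0.76 (SREBF1, adjusted p = 0.173) by edgeR, short of the threshold. Without replicate 4 both rose, by 0.30 (SREBF2, SE 0.09, adjusted p = 0.0114) and 0.29 (SREBF1, SE 0.10, adjusted p = 0.0276).

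INSIG2, the second anchor protein, was at 29.7, 29.8, 32.6 and 10.9 CPM in NAA40-KD (-dox), and at 20.1, 18.6, 21.4 and 21.5 CPM in SCR (-dox). Its first 3 libraries were above all controls and replicate 4 was below all of them. STARD4, which carries cholesterol between membranes, was at 127, 129, 125 and 28.9 CPM against 91.8, 52.4, 82.2 and 96.6 CPM, with replicate 4 once more the lowest of the 8. With all libraries neither passed in edgeR, at log2 fold changes of 0.34 each (adjusted p = 0.519 for INSIG2 and 0.656 for STARD4). Without replicate 4, INSIG2 rose by 0.59 (SE 0.10, adjusted p = 0.000396) and STARD4 by 0.65 (SE 0.16, adjusted p = 0.00909). SCAP, the escort of the SREBP proteins, was at 77.2, 74.5, 79.2 and 175 CPM against 75.4 to 81.4 CPM in SCR (-dox). Its first 3 libraries lay among the controls, and its log2 fold change of 0.37 with all libraries was -0.04 without replicate 4, passing in neither.

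At the head of the sterol route, HMGCS1 (chr5:43289395-43313512, minus strand), the cytosolic HMG-CoA synthase, was at 175, 172, 177 and 79.2 CPM in NAA40-KD (-dox). In SCR (-dox) it was at 111, 72.8, 88.8 and 121 CPM. The first 3 NAA40-KD libraries were above all controls, and replicate 4 fell among them. Its log2 fold change of 0.62 (adjusted p = 0.20, edgeR) became 0.82 (SE 0.14, adjusted p = 0.000387) without that library. ACAT2, the thiolase that makes the acetoacetyl-CoA used by HMGCS1, was at 22.0 to 25.7 CPM against 20.8 to 28.0 CPM, with overlapping groups and a log2 fold change of -0.02.

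**Figure D2:**
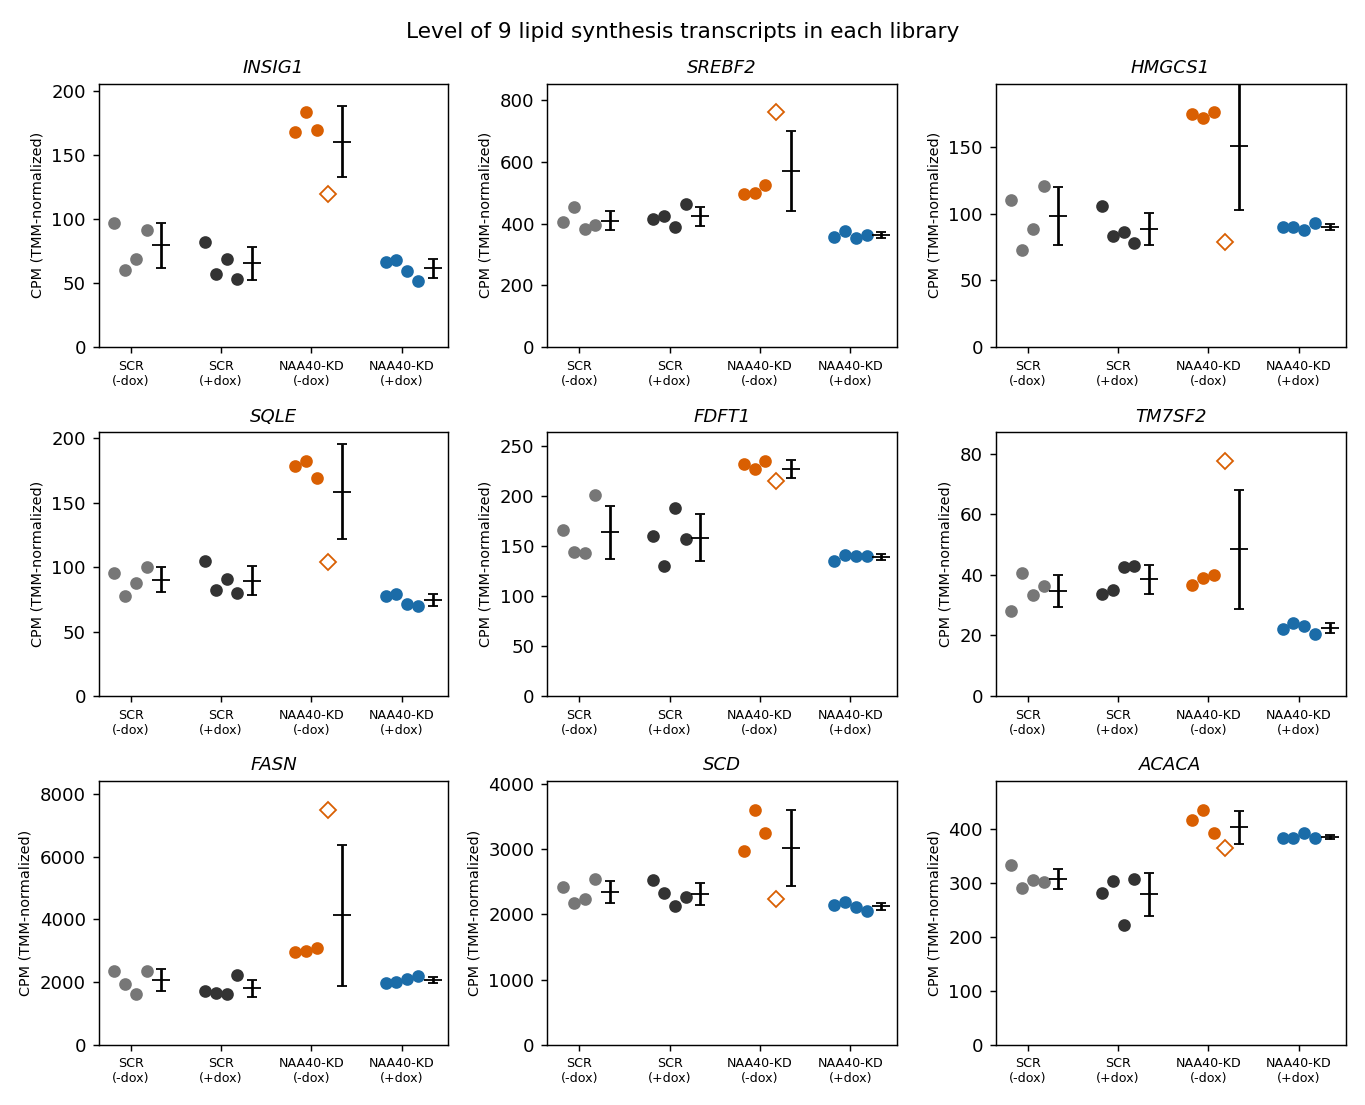
CPM of 9 members in each of the 16 libraries (vertical axes, in CPM and separate for each gene), grouped by label, with 1 point per library and a bar at the group mean ± SD (n = 4). The open diamond is NAA40-KD (-dox) replicate 4, which lies below its group in HMGCS1 and SQLE and far above it in FASN at 7504 CPM.

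The later sterol enzymes showed 3 patterns, given here by example. HSD17B7 (chr1:162790702-162812817, plus strand), a sterol ketoreductase, was at 20.1, 16.2, 15.1 and 10.2 CPM in NAA40-KD (-dox) and at 8.58, 9.07, 11.6 and 11.7 CPM in SCR (-dox). FDFT1, the squalene synthase, was at 232, 227, 235 and 215 CPM against 166, 144, 143 and 200.4 CPM. These were of the first pattern, with the first 3 NAA40-KD libraries above all controls and replicate 4 at the bottom of its group. IDI1 and SC5D shared it, with replicate 4 below all controls. FDFT1 did not overlap between groups. With all libraries neither passed, at 0.48 for FDFT1 (adjusted p = 0.0881, edgeR) and 0.59 for HSD17B7 (adjusted p = 0.144), and without replicate 4 both rose, FDFT1 by 0.50 (SE 0.11, adjusted p = 0.00219, edgeR) and HSD17B7 by 0.73 (SE 0.15, adjusted p = 0.0013). In the second, the first 3 libraries were moderately higher and replicate 4 was far above them. DHCR7, which makes cholesterol from its immediate precursor, was at 169.6, 176, 177 and 276 CPM against 94.96 to 133 CPM, and MVD, the mevalonate diphosphate decarboxylase, at 114, 105, 109 and 287 CPM against 76.1 to 87.1 CPM. With all libraries their log2 fold changes were 0.77 (DHCR7, adjusted p = 0.0586, edgeR) and 0.90 (MVD, adjusted p = 0.136), short of the threshold. Without replicate 4 they rose by 0.55 (DHCR7, SE 0.11, adjusted p = 0.000902) and 0.39 (MVD, SE 0.08, adjusted p = 0.00199). In the third, the first 3 libraries reached into the range of the controls. MSMO1, a sterol methyl oxidase, was at 83.9, 95.6, 74.1 and 19.96 CPM against 56.5 to 84.6 CPM, with replicate 4 the lowest of the 8, and FDPS and EBP overlapped as well.

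The fatty acid route holds FASN and SCD, the members with the highest levels. FASN (chr17:82078333-82098332, minus strand), the fatty acid synthase, was at 2964, 2982, 3086 and 7504 CPM in NAA40-KD (-dox), and at 2365, 1942, 1618 and 2344 CPM in SCR (-dox). SCD (chr10:100347124-100364834, plus strand), the stearoyl-CoA desaturase, was at 2969, 3609, 3253 and 2238 CPM against 2417, 2174, 2236 and 2547 CPM. FASN did not overlap between groups, whereas in SCD replicate 4 lay among the controls. With all libraries their log2 fold changes were 1.02 (FASN, adjusted p = 0.0939) and 0.37 (SCD, adjusted p = 0.196) by edgeR, and without replicate 4 both rose, by 0.54 (FASN, SE 0.12, adjusted p = 0.00332) and 0.48 (SCD, SE 0.11, adjusted p = 0.00235). ACACA (chr17:37084988-37406818, minus strand), the acetyl-CoA carboxylase, was at 418, 436, 392 and 366 CPM against 333, 290.2, 306 and 302.2 CPM, with no overlap. Its log2 fold change was 0.40 with all libraries (adjusted p = 0.0867, edgeR), and it rose by 0.43 without replicate 4 (SE 0.08, adjusted p = 0.00108). ACLY, the citrate lyase, was at 384, 365, 409 and 528 CPM against 299 to 403 CPM and passed in neither fit, with log2 fold changes of 0.25 and 0.11.

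Without replicate 4, 19 of the 33 members passed, 18 of them higher. The same test then called 36.5% of all 13751 genes tested, 17.1% as higher and 19.4% as lower. By list, 9 of the 18 sterol enzymes rose and none fell, 5 of the 6 regulators rose, and 4 of the 9 fatty acid enzymes rose while FADS1, a desaturase of polyunsaturated chains, fell by 0.21 (SE 0.08, adjusted p = 0.0493, edgeR). Besides those described, MVK rose by 0.34, IDI1 by 0.53, SC5D by 0.39 and ACSS2 by 0.45 on the log2 scale. With all libraries these 5 did not pass, at -0.24 (FADS1), 0.62 (MVK), 0.26 (IDI1), 0.11 (SC5D) and 0.49 (ACSS2). The median log2 fold change was 0.28 over the sterol enzymes, 0.11 over the fatty acid enzymes and 0.44 over the regulators, against -0.01 over all genes. With all 8 libraries these medians were 0.46, 0.25 and 0.43, against 0.04. In the fit with all libraries, 10 members had every NAA40-KD library above every SCR library, where 9.93% of all genes did. Without replicate 4 it was 17 members, where 20.4% of all genes did.

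**Figure D3:**
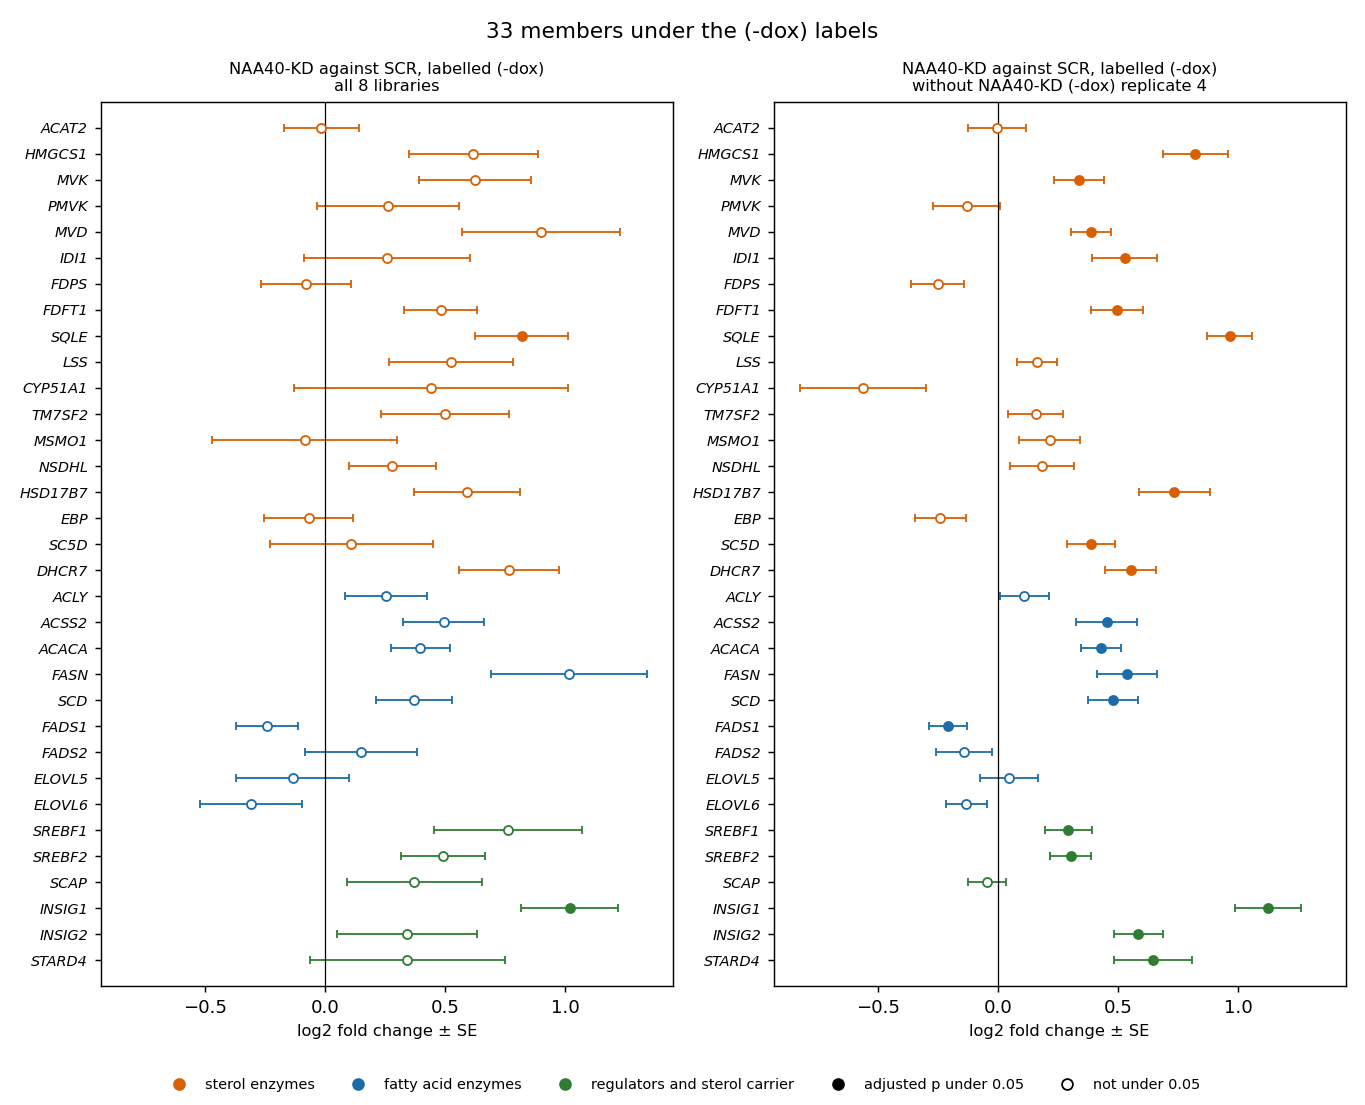
Log2 fold change (horizontal axis) of each of the 33 members in NAA40-KD against SCR, labelled (-dox), with bars of ± 1 SE, for all 8 libraries and without NAA40-KD (-dox) replicate 4. Filled points have an adjusted p under 0.05, which are 2 members with all libraries and 19 without replicate 4.

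Of genes near these routes, NPC1, which releases sterol from lysosomes, was at 173, 184, 160 and 171 CPM in NAA40-KD (-dox) and at 109, 122, 105 and 103 CPM in SCR (-dox). It rose by 0.66 (SE 0.13, adjusted p = 0.0212, edgeR) with all libraries and by 0.65 without replicate 4. It was the 1 of 11 tested genes of sterol uptake, transport and efflux that passed with all libraries, where 6.42% of all genes did. ACSL5, an acyl-CoA synthetase, was at 149, 166, 159 and 99.1 CPM against 242, 287, 287 and 238 CPM. It fell by 0.87 (SE 0.18, adjusted p = 0.0227), or by 0.74 without replicate 4, as the 1 of 19 other genes of fatty acid synthesis and activation that passed. None of the 9 other sterol and isoprenoid enzymes, 12 genes of SREBP cleavage and sterol sensing, 12 of triglyceride synthesis and storage or 16 of fatty acid oxidation passed with all libraries (at an unadjusted p under 0.05 they numbered 2, 1, 2 and 6). The share of all genes at that unadjusted threshold was not counted. Without replicate 4, the counts higher and lower were 3 and 1 for the other sterol enzymes, 0 and 2 for cleavage and sensing, 4 and 1 for uptake and transport, 7 and 2 for the other fatty acid genes, 3 and 1 for triglycerides, and 1 and 5 for oxidation. Of all genes 17.1% were then called as higher and 19.4% as lower.

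The next comparison set NAA40-KD against SCR among the libraries labelled (+dox), the contrast in which the study sought the effect of its knockdown, although NAA40 itself was not lower there. It does not use replicate 4 of NAA40-KD (-dox), but some of its SCR libraries also differed by GC content, as given above. More members lay lower than higher, with 24 of 33 below 0, where 49.5% of all genes lay above 0. Of the members 11 passed, 9 lower and 2 higher, where edgeR called 24.5% of 13869 genes, 13.7% as lower and 10.9% as higher. The changes were of modest size, and no member passed with an absolute log2 fold change above 1. By list, 4 of the 18 sterol enzymes and 4 of the 6 regulators fell, and of the 9 fatty acid enzymes 1 fell and 2 rose. A contrast between the lists was not tested.

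TM7SF2 (chr11:65111845-65116384, plus strand), a sterol reductase, was at 22.2, 24.1, 23.0 and 20.5 CPM in NAA40-KD (+dox) and at 33.8, 34.9, 42.5 and 42.9 CPM in SCR (+dox). The groups were well apart, and it fell by 0.78 on the log2 scale (SE 0.11, adjusted p = 5.29e-05, edgeR). Its span overlaps that of VPS51 on the same strand, so reads at their shared end could be counted for either. ELOVL6, which lengthens palmitate, was at 52.2, 53.5, 45.3 and 51.9 CPM against 91.3, 81.1, 78.3 and 70.2 CPM and fell by 0.66 (SE 0.10, adjusted p = 9.28e-05). ACACA went the other way, at 383, 384, 392 and 383 CPM against 282, 303, 223 and 308 CPM. Here all NAA40-KD libraries were higher and closely alike, and ACACA rose by 0.46 (SE 0.10, adjusted p = 0.00223). ELOVL5, an elongase of polyunsaturated chains, rose by 0.35 (SE 0.10, adjusted p = 0.0154), from 85.2 to 119 CPM in SCR (+dox) to 119.7 to 136 CPM.

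Both SREBF genes lay lower. SREBF1 was at 390.4, 380.4, 362 and 377 CPM in NAA40-KD (+dox) against 445, 501, 502 and 579 CPM in SCR (+dox), and fell by 0.43 (SE 0.09, adjusted p = 0.00218, edgeR). SREBF2 was at 357, 376, 354 and 364 CPM against 417, 426, 390.5 and 465 CPM, and fell by 0.23 (SE 0.08, adjusted p = 0.0499). Neither gene overlapped between groups, but SREBF2 sat at the threshold and did not pass when any 1 library other than SCR (+dox) replicate 3 was left out. INSIG2 fell by 0.48 (SE 0.13, adjusted p = 0.0129) and STARD4 by 0.48 (SE 0.12, adjusted p = 0.00862), each with 1 SCR library inside the NAA40-KD range. In INSIG2 the NAA40-KD libraries lay at 15.5 to 19.9 CPM and the SCR libraries at 18.2 to 29.1 CPM. INSIG1, at 51.8 to 68.4 CPM against 53.2 to 82.3 CPM, and SCAP, at 81.3 to 86.5 CPM against 67.9 to 81.8 CPM, did not pass.

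Of the remaining sterol enzymes, ACAT2 fell by 0.47 (SE 0.10, adjusted p = 0.00301, edgeR) from 21.4 to 26.2 CPM in SCR (+dox) to 17.3 to 18.1 CPM. EBP, the sterol isomerase, fell by 0.41 (SE 0.11, adjusted p = 0.00986). FDPS, the farnesyl diphosphate synthase, fell by 0.31 (SE 0.10, adjusted p = 0.0255), and its reads could be shared with 8 pseudogenes named after it. In contrast to the other pair of groups, HMGCS1 stood at 88.0 to 92.9 CPM in NAA40-KD (+dox) and 77.9 to 106 CPM in SCR (+dox), a log2 fold change of 0.03. FASN, at 1977 to 2179.5 CPM against 1617 to 2211 CPM, and SCD, at 2047 to 2184 CPM against 2128 to 2534 CPM, overlapped between groups. The median log2 fold change was -0.18 over the sterol enzymes, -0.07 over the fatty acid enzymes and -0.33 over the regulators, against -0.004 over all genes.

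The counts around the members stand beside 24.5% of all genes called in this comparison, 10.9% as higher and 13.7% as lower. Of the 12 genes of SREBP cleavage and sterol sensing 5 passed, all higher. TMEM97, a sterol-regulated membrane protein, rose by 0.53, UBE2G2, a ubiquitin-conjugating enzyme of endoplasmic reticulum degradation, by 0.51, and RNF145, a ubiquitin ligase of that membrane, by 0.46. Of 11 genes of sterol uptake, transport and efflux 4 passed, all lower, with ABCG1 at -0.74, SOAT1 at -0.32 and NPC1 at -0.29. Among 19 other fatty acid genes 2 rose and 2 fell. SLC25A1, which exports citrate from mitochondria, fell by 0.87, ELOVL1 fell by 0.43 and ELOVL7 rose by 0.41. In fatty acid oxidation 2 rose and 3 fell of 16, with HADH at 0.45, ETFDH at -0.32 and ETFA at -0.32. AGPAT1 fell by 0.43 and PLIN3 by 0.36, as the 2 of 12 triglyceride genes that passed, and DHDDS rose by 0.27, as the 1 of 9 other sterol and isoprenoid enzymes.

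**Figure D4:**
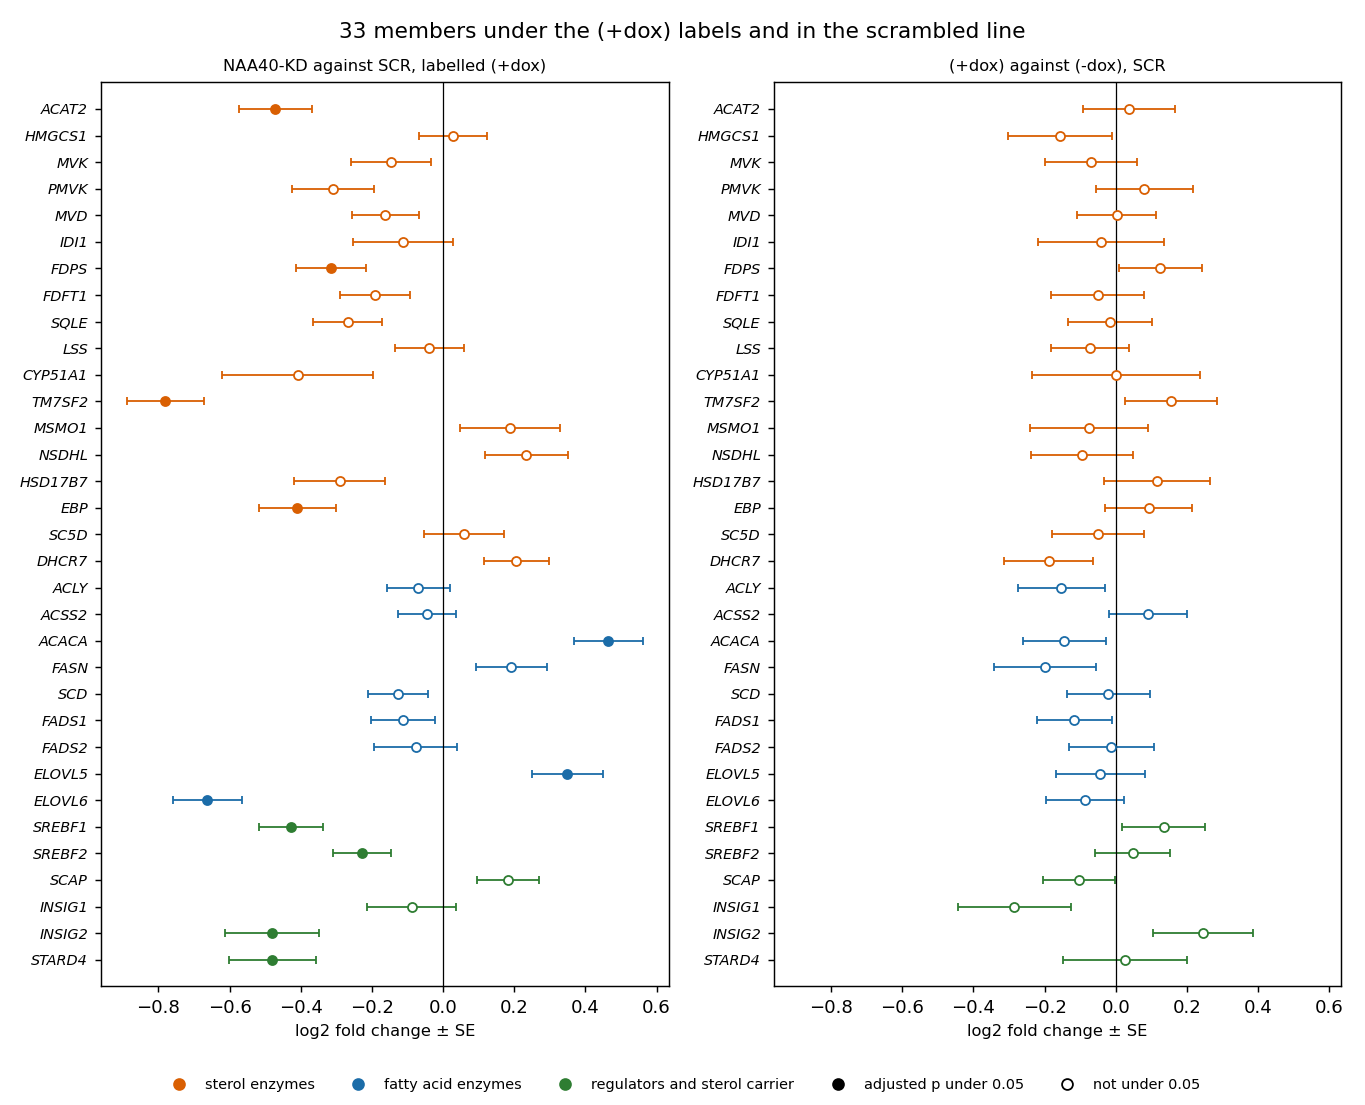
Log2 fold change (horizontal axis, with bars of ± 1 SE) of each of the 33 members in NAA40-KD against SCR, labelled (+dox), and in SCR (+dox) against SCR (-dox). Filled points have an adjusted p under 0.05, which are 11 members in the first comparison and 0 in the second, whose values lie between -0.29 and 0.24.

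The third comparison set NAA40-KD (+dox) against NAA40-KD (-dox), and so shares its libraries with both comparisons above. In total 30 of the 33 members lay lower in the libraries labelled (+dox), where 45.7% of all genes lay higher. With all 8 libraries edgeR called 8 members, 6 sterol enzymes and 2 regulators. DESeq2 called 16 in the same libraries, with ACLY, ACSS2, FASN and SCD among them, where it called 18.2% of 13844 genes. In edgeR all 8 were lower, where it called 10.2% of 13844 genes, 4.71% as higher and 5.5% as lower. Without replicate 4 of NAA40-KD (-dox), 23 passed, 22 lower and 1 higher, where 52.4% of 13700 genes were called, 25.8% as higher and 26.6% as lower.

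INSIG1 had the greatest fall, from 120.2 to 184 CPM in NAA40-KD (-dox) to 66.5, 68.4, 59.9 and 51.8 CPM in NAA40-KD (+dox). The log2 difference was -1.38 (SE 0.17, adjusted p = 0.00289, edgeR) with all libraries and -1.503 (SE 0.07) without replicate 4. SQLE fell from 104 to 183 CPM to 77.5, 78.8, 71.0 and 69.9 CPM, by 1.10 (SE 0.18, adjusted p = 0.00914), and FDFT1 from 215 to 235 CPM to 134 to 141 CPM, by 0.71 (SE 0.11, adjusted p = 0.00557). These 3 members passed in each fit that left out 1 library, and their groups did not overlap. TM7SF2 fell by 1.11 (adjusted p = 0.0261), MVK, the mevalonate kinase, by 0.82 (adjusted p = 0.0459), HSD17B7 by 0.76 (adjusted p = 0.0468), DHCR7 by 0.74 (adjusted p = 0.0333) and SREBF2 by 0.66 (adjusted p = 0.0332). Those 5 did not pass when any 1 NAA40-KD (+dox) library was left out, which left 3 members, and HSD17B7 overlapped between groups.

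Without replicate 4 these 8 fell as well, TM7SF2 by 0.79, MVK by 0.55, HSD17B7 by 0.91, DHCR7 by 0.54, FDFT1 by 0.74, SREBF2 by 0.49 and SQLE by 1.25. STARD4 then fell by 1.10 (SE 0.06, adjusted p = 1.68e-13, edgeR), HMGCS1 by 0.95 (SE 0.05, adjusted p = 1.75e-13), INSIG2 by 0.83, IDI1, which isomerizes isopentenyl diphosphate, by 0.68, SREBF1 by 0.59, MVD by 0.55, ACAT2 by 0.43, SC5D by 0.38 and LSS, the lanosterol synthase, by 0.28. Of the fatty acid enzymes SCD fell by 0.63 (SE 0.06, adjusted p = 3.11e-09), ELOVL6 by 0.62, FASN by 0.55, ACSS2 by 0.41 and ACLY by 0.34, while ELOVL5 rose by 0.26. That makes 12 of 18 sterol enzymes, 5 of 6 regulators and 5 of 9 fatty acid enzymes lower, with medians of -0.48, -0.71 and -0.34. With all libraries the medians were -0.67, -0.72 and -0.43, against -0.04 over all genes.

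Of the neighbouring genes, NPC1 fell by 0.90, SLC25A1 by 1.31, ELOVL1 by 0.59 and LPIN1, which makes diacylglycerol, by 0.62 with all libraries. In the same fit PDSS1, which makes the tail of coenzyme Q, rose by 1.00, ACSL5 by 0.86, TMEM97 by 0.84, UBE2G2 by 0.65, and the oxidation genes HADH by 0.65 and CPT1A by 0.57. These were 1 of 11 uptake and transport genes, 4 of 19 other fatty acid genes, 1 of 12 triglyceride genes, 1 of 9 other sterol enzymes, 2 of 12 cleavage and sensing genes, and 2 of 16 oxidation genes. In that fit 10.2% of all genes were called. Without replicate 4 the counts higher and lower were 1 and 5, 2 and 13, 1 and 6, 3 and 3, 7 and 0, and 7 and 2 for these lists in the same order. Of all genes 25.8% were then called as higher and 26.6% as lower. NPC1 then fell by 0.90, SLC25A1 by 0.92, ELOVL1 by 0.46 and LPIN1 by 0.69, and PDSS1 rose by 0.91, ACSL5 by 0.72, TMEM97 by 0.71, UBE2G2 by 0.57, HADH by 0.60 and CPT1A by 0.62.

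In the scrambled line no member differed between the libraries labelled (+dox) and (-dox). Its log2 fold changes ran from -0.29 in INSIG1 to 0.24 in INSIG2. edgeR called 0 of 33 members and 0% of 13882 genes, and 0 members had an unadjusted p under 0.05. DESeq2 and limma-voom called 0 members as well. The medians were -0.03 over the sterol enzymes, -0.09 over the fatty acid enzymes and 0.04 over the regulators, against -0.002 over all genes. With 4 libraries against 4, a small difference could not have been detected.

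Whether the difference between the lines itself differed between the (+dox) and the (-dox) labels was tested as an interaction over all 16 libraries. A negative value means that NAA40-KD against SCR was lower under the (+dox) label than under the (-dox) label. In total 7 of 33 members passed, all negative, where edgeR called 9.22% of 14392 genes, 4.31% as positive and 4.91% as negative. They were TM7SF2 (-1.27, SE 0.29, adjusted p = 0.0116), SREBF1 (-1.17, SE 0.33, adjusted p = 0.0327), INSIG1 (-1.10, SE 0.26, adjusted p = 0.0128) and SQLE (-1.08, SE 0.22, adjusted p = 0.00647). HSD17B7 (-0.88, SE 0.25, adjusted p = 0.0375), SREBF2 (-0.71, SE 0.18, adjusted p = 0.0222) and FDFT1 (-0.67, SE 0.18, adjusted p = 0.0268) completed them. In NAA40-KD (-dox) replicate 4, TM7SF2 was at 77.8 CPM against 36.6 to 40.1 CPM in the rest of its group, and SREBF1 at 1389 CPM against 538 to 596 CPM. Among the (-dox) labels without replicate 4, TM7SF2 differed by 0.16 (adjusted p = 0.304, edgeR). All 7 interactions passed without that library, but SREBF1, HSD17B7 and FDFT1 did not pass when any 1 NAA40-KD (+dox) library was left out. SREBF2 did not pass without NAA40-KD (+dox) replicate 3 or SCR (+dox) replicate 4. TM7SF2, INSIG1 and SQLE passed in each fit that left out 1 library. None of the 9 fatty acid enzymes passed in edgeR or limma-voom. In edgeR 3 of them had an unadjusted p under 0.05, a threshold at which the share of all genes was not counted. DESeq2 called ACSS2 and SCD, where it called 13.7% of 14392 genes. The medians were -0.55 over the sterol enzymes, -0.31 over the fatty acid enzymes and -0.82 over the regulators, against -0.05 over all genes.

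Without NAA40-KD (-dox) replicate 4 the interaction passed for 17 members, all negative, where 24.2% of 14302 genes were called, 11.9% as positive and 12.3% as negative. SQLE (-1.24), INSIG1 (-1.22), STARD4 (-1.14), INSIG2 (-1.08) and HSD17B7 (-1.03) led them. Of the fatty acid enzymes SCD (-0.61), ELOVL6 (-0.54) and ACSS2 (-0.50) passed, where the fit with that library had called none of this list. Among other genes, SLC25A1 (-1.36), NPC1 (-0.94) and ELOVL1 (-0.69) were negative and passed with all libraries, and TMEM97 (1.01), PDSS1 (0.99), CPT1A (0.79), ACSL5 (0.79), UBE2G2 (0.76) and HADH (0.70) were positive. Without replicate 4 these 9 passed with the same signs, from -0.97 in SLC25A1 and -0.95 in NPC1 to 0.88 in TMEM97 and 0.89 in PDSS1. With all libraries and without replicate 4, the genes passing were 2 and 5 of 12 in cleavage and sensing, 1 and 5 of 11 in uptake and transport, 3 and 6 of 19 other fatty acid genes, 0 and 3 of 12 in triglycerides, 1 and 2 of 9 other sterol enzymes, and 2 and 3 of 16 in oxidation. Of all genes, 9.22% and 24.2% passed in these fits. At an unadjusted p under 0.05, where the share of all genes was not counted, 5 triglyceride genes were found with all libraries.

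Set side by side, the medians of the sterol and the fatty acid enzymes had the same sign in every comparison with all libraries. The sterol median was farther from 0 in each but that within the scrambled line, a contrast between lists that was not tested. In each library, the median over a list of the log2(CPM + 1) difference from the SCR (-dox) mean was taken. Over the sterol enzymes it was 0.26, 0.31, 0.34 and 0.36 in NAA40-KD (-dox), between -0.12 and 0.18 in SCR (-dox), between -0.15 and 0.13 in SCR (+dox), and between -0.19 and -0.14 in NAA40-KD (+dox). Over the fatty acid enzymes it was 0.14, 0.22, 0.14 and 0.25 in NAA40-KD (-dox) and between -0.08 and 0.05 in SCR (-dox). By this median all 4 NAA40-KD (-dox) libraries, replicate 4 included, stood above every SCR (-dox) library in both lists. The regulators stood at 0.40, 0.45, 0.51 and 0.76 in NAA40-KD (-dox) and between -0.36 and -0.15 in NAA40-KD (+dox). In replicate 4 the members lay far to both sides of the other libraries of its group, so its median does not show that they moved alike. The mean over the regulators was lowest there, at 0.33, against 0.46, 0.51 and 0.51 in replicates 1 to 3.

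**Figure D5:**
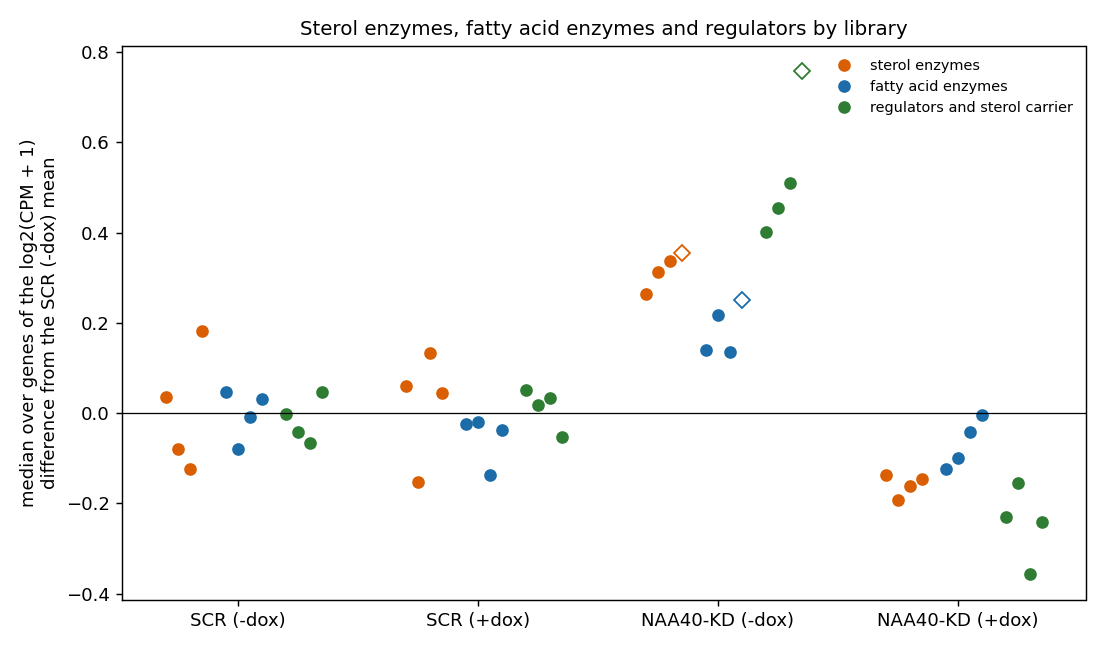
Median over the genes of each list of the difference in log2(CPM + 1) from the SCR (-dox) mean (vertical axis), 1 point per library, for sterol enzymes, fatty acid enzymes and regulators. NAA40-KD (-dox) libraries lie above 0 in all 3 lists (replicate 4 is the open diamond), with the regulators highest at 0.40 to 0.76.

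The members spanned a wide range of levels in both routes. On the scale of CPM per kilobase of exon in SCR (-dox), which allows genes to be compared, SCD stood at 437, FASN at 221 and ACLY at 68.3. The other 6 fatty acid enzymes stood at 26.9 (ELOVL5), 23.7 (ACACA), 15.9 (ACSS2), 11.6 (ELOVL6), 10.9 (FADS1) and 1.33 (FADS2), within the range of the sterol enzymes. Those ran from 1.15 in CYP51A1 and 2.14 in HSD17B7 to 28.4 in DHCR7 and 31.4 in FDFT1. SREBF1 at 57.4 and SREBF2 at 54.2 lay above every sterol enzyme. All 33 members together took 0.672% to 0.848% of the counts in SCR (-dox), 0.677% to 0.787% in SCR (+dox) and 0.707% to 0.727% in NAA40-KD (+dox). In NAA40-KD (-dox) they took 1.01% to 1.09% in the first 3 libraries and 1.42% in replicate 4, above all others. Summed over the list, the sterol enzymes came to 1425, 1420.4, 1402 and 1519 CPM there and 928 to 1174 CPM in SCR (-dox), and the fatty acid enzymes to 7163, 7828, 7508 and 10966 CPM against 4890 to 5973 CPM, sums that FASN and SCD dominate.

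The 4 members described least had low or steady levels. PMVK, the phosphomevalonate kinase, was at 16.7 to 39.8 CPM in NAA40-KD (-dox), with the top value in replicate 4, and at 14.8 to 23.4 CPM in SCR (-dox). NSDHL, a sterol dehydrogenase, was at 22.8 to 31.2 CPM against 18.7 to 25.7 CPM. FADS2, a desaturase whose span overlaps FADS1 and FEN1, was at 12.1 to 24.5 CPM against 13.9 to 15.3 CPM. CYP51A1 was at 2.53, 3.19, 2.69 and 13.9 CPM against 2.80, 4.98, 3.05 and 5.70 CPM. None of these 4 passed in any comparison with or without replicate 4, and the log2 fold change of CYP51A1 among the (-dox) labels was 0.44 with replicate 4 and -0.56 without it. CYP51A1 has 3 pseudogenes named after it, HSD17B7 has 2, and SCD and FADS2 have 1 each, with which reads could be shared. ACAT2 overlaps TCP1 and SOD2, MVK overlaps MMAB, ACSS2 overlaps GGT7 and SREBF1 overlaps RAI1, so their counts are less certain. On the same strand, CYP51A1 overlaps AC000120.2 and AC000120.3, so its low level is also less certain.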

How the data were processed

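RNA was taken from 16 HCT116 libraries (4 groups of 4, named by their GEO labels). The authors deposited raw gene counts, 1 column per library, made per the study's methods and the labels with STAR and featureCounts. The methods name a mouse build, the labels list human and mouse builds, and all 33937 gene identifiers are human. The strand setting is not given in the sources used here, so a gene and an overlapping partner may share reads. Gene positions are those of GRCh38 (GENCODE release 29).

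From these counts, genes with CPM over 1 in at least 4 libraries of a fit were kept (all 33 members passed in every fit) and tested with edgeR 4.0.16 in R 4.3.3 (TMM, robust quasi-likelihood F test, two-sided, Benjamini-Hochberg over all genes tested, passing at adjusted p under 0.05). Each comparison of 2 groups used its own 8 libraries and the interaction all 16. The list-wise levels used a pseudocount of 1. Alternatives were DESeq2 1.42.0, limma-voom 3.58.1, other scaling, filters, thresholds, samples and a replicate block, and, added after seeing the data, an offset for GC content. The scripts were tested on simulated counts. Members that passed were named by absolute log2 fold change, up to 12 per comparison in full, regulators and heads of routes always, and up to 3 passing genes from each other list. The members and lists were chosen with earlier results of these data known. Some cholesterol genes are not analysed here.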

Additional observations from a re-analysis of the deposited data

Results flagged for a closer look

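Levels of each member within each group of 4 libraries were checked for a library far from the other 3 by Dixon's ratio. Of 136 groups (33 members and NAA40, 4 groups each), 21 held such a library, or 15.4%. Chance flags about 1 in 20 groups. Of the 21, 15 fell on NAA40-KD (-dox) replicate 4, 11 of them high and 4 low. The high values were CYP51A1 at 13.9 CPM, DHCR7 at 276, FASN at 7504, LSS at 141, MVD at 287, MVK at 57.1, PMVK at 39.8, SCAP at 175, SREBF1 at 1389, SREBF2 at 763 and TM7SF2 at 77.8 CPM. The low values were HMGCS1 at 79.2 CPM, IDI1 at 35.3, INSIG2 at 10.9 and STARD4 at 28.9 CPM. Apart from CYP51A1, the high members were among those of higher GC content and the low members among those of lower GC content. In another library of that group, replicate 3, ACSS2 was low at 93.5 CPM.

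In NAA40-KD (+dox), ACACA was high in replicate 3 at 392.0 CPM, ACAT2 was high in replicate 2 at 18.1 CPM and LSS was low in replicate 2 at 52.0 CPM. In that group the other 3 libraries lay close together, so small gaps were enough. LSS was high in SCR (+dox) replicate 4 at 67.3 CPM, and FADS1 was low in SCR (-dox) replicate 2 at 106 CPM.

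The difference between the lines differed between the (+dox) and (-dox) labels in the edgeR interaction for 7 members, with log2 values of -1.27 for TM7SF2, -1.17 for SREBF1, -1.10 for INSIG1, -1.08 for SQLE, -0.88 for HSD17B7, -0.71 for SREBF2 and -0.67 for FDFT1.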

How the results depend on the processing

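No member that passed changed direction under any setting, but counts of members moved widely, and the cause was not tested. Within the scrambled line, the sterol median changed sign when single libraries were left out. The share of all genes called stands after a count where the fit was changed or the fold threshold was added. It was not counted at an adjusted p under 0.01 or 0.1, nor for the fold threshold in the interaction. Those counts therefore have no background beside them. Among the (-dox) labels, the 2 members that passed became 0 at an adjusted p under 0.01 and 6 at one under 0.1. They became 1 with an absolute log2 fold change above 1 as well (3.47%), 8 with DESeq2 (13.8%), 1 with library size alone (6.57%) and 14 with all 16 libraries in the fit (20.5%). Among the (+dox) labels, 11 became 7 at 0.01, 0 with the fold threshold (2.15%) and 4 with all 16 libraries (6.71%). Between the NAA40-KD groups, 8 became 3 at 0.01, 16 at 0.1, 3 with the fold threshold (3.99%), 16 with DESeq2 (18.2%) and 17 with all 16 libraries (22.3%). The interaction's 7 became 1 at 0.01, 11 at 0.1, 4 with the fold threshold and 11 with DESeq2 (13.7%). The sterol median was 0.36 with limma-voom among the (-dox) labels and -0.48 between the NAA40-KD groups, where it was -0.63 with no filter.

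The offset for GC content gave 19 members among the (-dox) labels (36%), 17 higher and 2 lower, with medians of 0.31 (sterol) and 0.19 (fatty acid). It gave 14 among the (+dox) labels (31.7%), 4 higher and 10 lower, 21 between the NAA40-KD groups (44.1%, medians -0.51 and -0.32), and 16 in the interaction (29%). With NAA40-KD (-dox) replicate 4 left out as well, it gave 22 (40.3%, medians 0.30 and 0.15), 23 (52.9%, medians -0.49 and -0.33) and 20 (31.1%).

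Leaving out 1 library gave 0 to 19 members among the (-dox) labels (1.64% to 36.5% of all genes, medians 0.28 to 0.54 and 0.11 to 0.32), 8 to 13 among the (+dox) labels (17% to 25.4%, -0.24 to -0.11 and -0.08 to -0.03), 3 to 23 between the NAA40-KD groups (2.77% to 52.4%, -0.70 to -0.48 and -0.44 to -0.34), 0 in the scrambled line (0%, -0.08 to 0.05 and -0.15 to -0.028) and 3 to 17 in the interaction (5.71% to 24.2%). NAA40 lay at 37.9% to 43.0%, 109% to 113%, 239% to 272% and 89.4% to 98.6% of the other group in the 4 comparisons. The highest count among the (-dox) labels, between the NAA40-KD groups and in the interaction came without NAA40-KD (-dox) replicate 4. Among the (-dox) labels, the count was 0 without SCR replicate 2, 3 or 4 or NAA40-KD replicate 1, 2 or 3 (INSIG1 and SQLE both lost), and 1 without SCR replicate 1. Between the NAA40-KD groups it was 3 without any 1 (+dox) library (INSIG1, SQLE and FDFT1) and 5 without (-dox) replicate 2 or 3. In the interaction it was 3 without NAA40-KD (+dox) replicate 3 and 4 without SCR (+dox) replicate 3 or 4, SCR (-dox) replicate 1, or NAA40-KD (+dox) replicate 1, 2 or 4.

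The labels number the replicates 1 to 4 in each group, but do not say that a number marks a shared batch. Deviations of same-numbered libraries correlated over 0.1 for 1 of 4 numbers among the (-dox) labels, 2 of 4 among the (+dox) labels, 3 of 4 between the NAA40-KD groups and 0 of 4 in the scrambled line, so the numbers were not treated as pairs in any comparison. They did so for 4 of 4 numbers between SCR (+dox) and NAA40-KD (-dox), which no comparison sets against each other, and over all 24 correlations the range was -0.515 to 0.714. With the replicate number as a block, 0 members passed in edgeR among the (-dox) labels (0.59% of all genes, sterol median 0.36), 13 among the (+dox) labels (29.3%), 3 between the NAA40-KD groups (5.61%, sterol median -0.52), 0 in the scrambled line and 6 in the interaction (8.46%). Depth limits CYP51A1 most, with as few as 32 counts in a library.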
